A study of Mus musculus with 4 samples.

Results

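Crypt base stem cell genes are the genes by which the dividing stem cells at the bottom of intestinal crypts are usually recognised. They were taken by name from transcript tables of 4 mouse intestine RNA-seq libraries, and the 10 genes were Lgr5, Ascl2, Olfm4, Axin2, Smoc2, Lrig1, Sox9, Ephb2, Ephb3 and Prom1. The tables listed 55203 genes in all. These 10 genes made up 66 of the 141738 transcripts listed, and a gene's level was the sum of FPKM (fragments scaled to transcript length and to the fragments mapped in the library) over its transcripts. Prom1 had by far the highest level of the 10, Lgr5 and Ascl2 were below 1 FPKM, and Olfm4 was listed at 0 in 3 of 4 libraries. None of the 7 genes high enough to be tested passed the test between the 2 kinds of library, beside 0.0363% of all genes tested.

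Intestinal tissue came from adult wild-type male C57BL/6NTac mice, 8 to 12 weeks old, housed free of specific pathogens (SPF). Labels put 2 libraries in a group processed with 4 mM RVC (ribonucleoside vanadyl complex, which blocks ribonucleases) and the other 2 in a fresh-frozen group. The stated purpose was a bulk measurement to set beside MERFISH, an imaging method that counts transcripts in tissue sections, and no separate question about RVC was stated. All 4 share a protocol text that includes an RVC rinse, and only the label tells how the fresh-frozen tissue was kept. Batch numbers were different for every library, and batch and group therefore cannot be told apart. The labels do not say that the 2 libraries of a group came from different mice, and p-values then measure only the spread between these libraries, which may be technical.

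Intestinal crypts are renewed from stem cells at their base. Wnt ligands and R-spondins from the surrounding stroma keep these cells dividing, and Lgr5, a receptor for R-spondins, is itself a Wnt target gene. Wnt signal also switches on Axin2, a feedback inhibitor in the pathway, the transcription factors Ascl2 and Sox9, and the receptors Ephb2 and Ephb3, which sort cells along the crypt axis against ephrin-B ligands higher up. Lrig1 restrains ErbB receptors. Prom1, Lrig1 and Sox9 also mark cells beyond the Lgr5-positive ones, so in bulk tissue their levels are not a count of stem cells. For every gene here, fewer cells of a type and less RNA per cell cannot be told apart.

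The source label reads ileum, whereas the protocol and the series' design text name distal colon. Hoxb13, a homeobox gene of the hindgut, ranged from 98.5 to 133 FPKM and Car1, a carbonic anhydrase of colonocytes, from 1576 to 1781 FPKM. Some other colon genes varied far more, also within groups. Hoxd13 was at 9.59 FPKM (RVC 1) and 26.0 FPKM (RVC 2) against 39.5 FPKM (fresh frozen 1) and 5.68 FPKM (fresh frozen 2). B4galnt2 was at 89.6, 54.4, 46.2 and 90.7 FPKM in the same order, and Hoxd12 also varied within both groups. Fgf15 and Apoa4, which mark ileum and other small intestine, were listed at 0 in every library, as was Defa17. Of the 9 small intestinal genes listed, 3 had a mean of at least 1 FPKM, with Fabp2 the highest at 14.5 to 43.7 FPKM, and all 8 colon genes did. Depth in fragments is unknown from FPKM, and the ratio of coverage to FPKM put the libraries at 72.6% to 100% of the deepest, with 14247 to 14573 genes at 1 FPKM or more. General epithelial marker genes summed to 6752 FPKM (RVC 1) and 6645 FPKM (RVC 2) against 7302 FPKM (fresh frozen 1) and 5525 FPKM (fresh frozen 2). Smooth muscle marker genes summed to 1127 and 1681 FPKM in the RVC libraries and to 694 and 746 FPKM in the fresh-frozen ones, and all 8 of them were higher in both RVC libraries, a separation found in 26.5% of all tested genes. The same held for 6 of 6 endothelial, 4 of 4 tested plasma cell and 5 of 6 macrophage genes, with median log2 fold changes of 0.56, 0.88 and 0.45 beside 0.88 for smooth muscle. No gene of these lists passed by limma (lowest adjusted p = 0.114, in smooth muscle). At an unadjusted p under 0.05, 8, 5, 3 and 4 genes of the smooth muscle, endothelial, plasma cell and macrophage lists were higher in RVC. Of all tested genes, 9.38% were. Of 6 fibroblast genes, 1 was higher without overlap, 1 had an unadjusted p under 0.05 and 2 were below 0 (median log2 fold change 0.22). Of 2 tested enteric glia genes, 1 was higher without overlap. The part of these cell types in the values of the stem cell genes was not tested.

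FPKM is per transcript length, so levels can be compared between genes. In order of mean level the genes were Prom1, Lrig1, Sox9, Ephb2, Smoc2, Axin2, Ephb3, Lgr5, Ascl2 and Olfm4. Prom1 was 6.91 times as high as Lrig1, Sox9 2.15 times as high as Ephb2, and Ephb3 3.25 times as high as Lgr5, each with ranges over the 4 libraries that did not overlap. The ranges of Lrig1 and Sox9, of Ephb2 and Smoc2, of Smoc2 and Axin2, of Axin2 and Ephb3, and of Lgr5 and Ascl2 did overlap. Within libraries the upper gene of the pair was nonetheless higher in 4 of 4 for Lrig1 over Sox9, Ephb2 over Smoc2 and Axin2 over Ephb3, and in 3 of 4 for Smoc2 over Axin2 and Lgr5 over Ascl2. Prom1 alone held 71.2% of the summed FPKM of the 10 genes in RVC 1 and 72.5% in RVC 2, against 67.6% and 63.6% in the fresh-frozen libraries 1 and 2. A summed score over these genes is thus mostly a measure of Prom1. Without Prom1 the other 9 summed to 32.4, 32.9, 34.3 and 41.0 FPKM in the same order of libraries.

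**Figure D1:**
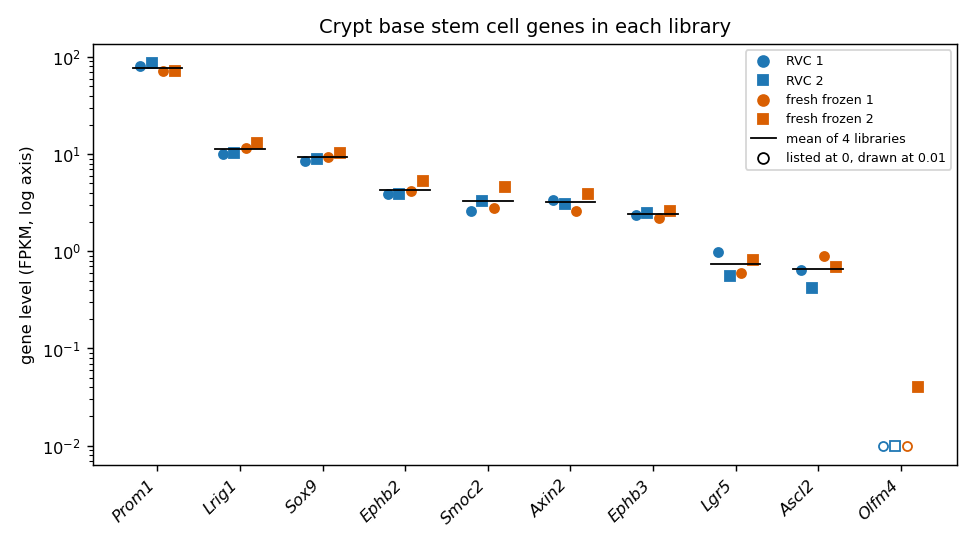
Level of each of the 10 genes in FPKM on a log axis, 1 point per library, with a bar at the mean of the 4 libraries where all 4 were above 0; open points were listed at 0. Prom1 sits between 71.5 and 86.4 FPKM, while Lgr5 and Ascl2 stay below 1 FPKM in every library.

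Lgr5 was low in all libraries. Its level was 0.986 FPKM (RVC 1) and 0.563 FPKM (RVC 2) against 0.601 FPKM (fresh frozen 1) and 0.806 FPKM (fresh frozen 2), a mean of 0.739 ± 0.196 FPKM (SD, n = 4). The groups overlapped, with the highest and the lowest value both among the RVC libraries, and the mean was under the minimum of 1 FPKM set for testing. Much of the excess of RVC 1 came from a short transcript of 607 nt without a defined coding sequence, Lgr5-203, which was estimated at 0.346 FPKM there, 35.1% of the gene's sum, and at under 0.00005 FPKM elsewhere. The authors' confidence bounds on Lgr5-203 in RVC 1 ran from 0 to 0.804 FPKM, so this estimate is uncertain. The long coding transcript Lgr5-201 (4714 nt) gave another order, with 0.487 FPKM (RVC 1) and 0.529 FPKM (RVC 2) against 0.538 FPKM (fresh frozen 1) and 0.693 FPKM (fresh frozen 2). On this transcript RVC 1 was the lowest library instead of the highest and both RVC libraries were below both fresh-frozen ones. The authors' confidence bounds on it ran from 0.355 to 0.618 FPKM in RVC 1 and from 0.554 to 0.832 FPKM in fresh frozen 2, and these bounds overlap.

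Lgr5 lies on the minus strand of chromosome 10 (GRCm39), at chr10:115286216-115423685, and the 250 bases before the start of Lgr5-201, at chr10:115423686-115423935, are shown because TCF/LEF factors carry the Wnt signal to target genes. No annotated exon overlaps this stretch, and 68% of it is G or C.

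Lgr5-201 upstream: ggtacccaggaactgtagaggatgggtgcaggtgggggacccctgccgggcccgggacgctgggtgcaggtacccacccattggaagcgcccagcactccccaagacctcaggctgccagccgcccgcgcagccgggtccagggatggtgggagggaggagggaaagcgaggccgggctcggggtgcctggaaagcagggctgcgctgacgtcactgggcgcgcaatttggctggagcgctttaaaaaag

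Neither of the TCF/LEF core motifs CTTTGAT and CTTTGTT occurred in it on either strand, so no letters are in capitals. Windows of 250 bases before the main transcript of all 10 genes held 0 such matches, and 5.95% of the windows of 13658 tested genes held at least 1. Apart from that of Lgr5, the windows of these genes overlap annotated exons. Except for Lgr5 and Olfm4, the genome at the listed start does not match the start of the annotated transcript. Most of these windows are therefore not purely upstream sequence. In the RefSeq promoter table (GRCm38.p6), which reaches into the first bases of the gene and lists 7 of these genes, 0 of the 7 held a motif, against 10.6% of 27025 genes. The median G and C content of the 10 windows was 66.6%, and that of the tested genes 57.6%. The count describes these windows only.

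Ascl2, the basic helix-loop-helix factor that acts with Wnt signal to maintain the stem cell state, was about as low as Lgr5. It stood at 0.635 FPKM (RVC 1) and 0.415 FPKM (RVC 2) against 0.898 FPKM (fresh frozen 1) and 0.697 FPKM (fresh frozen 2), a mean of 0.661 ± 0.199 FPKM (SD, n = 4). Both RVC libraries were below both fresh-frozen libraries, a difference without a test at this level. Such separation was found in 26.6% of all tested genes. The authors' bounds on Ascl2-201 overlapped even between the lowest and the highest library, at 0.201 to 0.629 FPKM (RVC 2) and 0.571 to 1.23 FPKM (fresh frozen 1). The ratio of Lgr5 to Ascl2 was 1.55, 1.36, 0.669 and 1.16 in RVC 1, RVC 2, fresh frozen 1 and fresh frozen 2. Fresh frozen 1 alone had more Ascl2 than Lgr5. Olfm4, a secreted glycoprotein used as a stem cell marker in mouse small intestine, was listed at 0 in RVC 1, RVC 2 and fresh frozen 1 and at 0.0400 FPKM in fresh frozen 2, where the authors' upper bound for its transcript Olfm4-201 was 0.109 FPKM.

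Axin2, the scaffold of the beta-catenin destruction complex that Wnt signal induces, overlapped between the groups. The values were 3.37 FPKM (RVC 1) and 3.10 FPKM (RVC 2) against 2.60 FPKM (fresh frozen 1) and 3.85 FPKM (fresh frozen 2) (mean 3.23 ± 0.520, SD, n = 4). Both extremes were fresh-frozen libraries, and the log2 fold change of RVC over fresh frozen was 0.02 (SE 0.178, limma adjusted p = 0.96). Its transcripts went in different directions. The long coding transcript Axin2-201 (4260 nt) was at 1.21, 1.70, 1.61 and 2.50 FPKM in RVC 1, RVC 2, fresh frozen 1 and fresh frozen 2, whereas the 826-nt Axin2-204 was at 1.38, 1.11, 0.616 and 0.998 FPKM. Axin2-204 was higher in both RVC libraries than in both fresh-frozen ones. The authors' bounds on it overlapped even between its highest and lowest library, at 0.726 to 2.04 FPKM (RVC 1) and 0.154 to 1.08 FPKM (fresh frozen 1). Axin2-201 overlapped between the groups, and with it in place of the sum the log2 fold change of Axin2 was -0.29. The long-transcript and summed values of Axin2 thus differ in sign.

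Smoc2, a secreted calcium-binding matrix protein, had the widest spread of the tested stem cell genes. It was at 2.61 FPKM (RVC 1) and 3.27 FPKM (RVC 2) against 2.82 FPKM (fresh frozen 1) and 4.62 FPKM (fresh frozen 2) (mean 3.33 ± 0.906, SD, n = 4), with a coefficient of variation of 27.9% after scaling between libraries. Fresh frozen 2 stood above the rest and fresh frozen 1 lay between the RVC libraries, so the groups overlapped (log2 fold change -0.24, SE 0.211, limma adjusted p = 0.562). A second full-length coding transcript, Smoc2-204, was estimated at 0.662 FPKM in fresh frozen 2 and under 0.0001 FPKM in the other libraries. Without fresh frozen 2 the log2 fold change of Smoc2 was 0.053, with the sign turned.

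Lrig1, the leucine-rich repeat protein that lowers ErbB receptor signal, was second in level. It was at 9.99 FPKM (RVC 1) and 10.3 FPKM (RVC 2) against 11.7 FPKM (fresh frozen 1) and 12.9 FPKM (fresh frozen 2) (mean 11.2 ± 1.37, SD, n = 4). Both RVC libraries were below both fresh-frozen ones, with a log2 fold change of -0.25 (SE 0.118, 95% interval -0.53 to 0.03, limma adjusted p = 0.299). The main coding transcript Lrig1-202 gave 7.92, 8.43, 8.42 and 10.04 FPKM in RVC 1, RVC 2, fresh frozen 1 and fresh frozen 2, on which RVC 2 and fresh frozen 1 nearly coincide. The rest of the gap lay in Lrig1-207, a nonsense-mediated decay transcript, and in the 438-nt fragment Lrig1-206, which was at 0.260 and 0.166 FPKM in the RVC libraries and at 1.25 and 0.698 FPKM in the fresh-frozen ones. Slc25a26 overlaps Lrig1 on the opposite strand, and no source used here states that strand was used in the counting. All of the 10 genes except Ephb3 and Ascl2 overlap another annotated gene, mostly long noncoding RNAs, and reads of overlapping genes on opposite strands could then not be told apart.

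Sox9, an HMG-box transcription factor of crypt cells with a single listed transcript, had one of the tightest patterns. Its level was 8.59 FPKM (RVC 1) and 8.82 FPKM (RVC 2) against 9.40 FPKM (fresh frozen 1) and 10.2 FPKM (fresh frozen 2) (mean 9.26 ± 0.724, SD, n = 4), with a coefficient of variation of 8.12% after scaling. RVC was lower without overlap, with a log2 fold change of -0.15 (SE 0.118, 95% interval -0.43 to 0.13, limma adjusted p = 0.508). Sox4, a related factor, ran lower than Sox9 in every library, with Sox9 between 2.47 and 3.59 times as high.

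Ephb2 and Ephb3 are receptor tyrosine kinases that bind ephrin-B ligands. Ephb2 was at 3.92 FPKM (RVC 1) and 3.93 FPKM (RVC 2) against 4.14 FPKM (fresh frozen 1) and 5.25 FPKM (fresh frozen 2) (mean 4.31 ± 0.637, SD, n = 4). The groups did not overlap, but fresh frozen 1 was nearer to the RVC libraries than to fresh frozen 2 (log2 fold change -0.20, SE 0.149, limma adjusted p = 0.486). Ephb3 was at 2.34 FPKM (RVC 1) and 2.49 FPKM (RVC 2) against 2.18 FPKM (fresh frozen 1) and 2.61 FPKM (fresh frozen 2), the smallest SD of the 7 tested stem cell genes in FPKM (0.186, n = 4), and its groups overlapped (log2 fold change 0.02, SE 0.147, limma adjusted p = 0.964). Ephb2 exceeded Ephb3 in every library, by 1.67 times in RVC 1 and 1.58 times in RVC 2, against 1.90 and 2.02 times in the fresh-frozen libraries 1 and 2. That ratio was lower in both RVC libraries, and it was not tested.

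The ephrin ligands were far above these receptors. Efnb1 was between 23.1 and 28.0 FPKM and Efnb2 between 31.0 and 36.4 FPKM, so that Efnb1 was 4.41 to 7.15 times as high as Ephb2 and Efnb2 12.6 to 15.5 times as high as Ephb3. Both ligands are also made outside crypt bases and outside epithelium. Of 10 ephrins and other Eph receptors 7 were tested and none passed by limma. An unadjusted p under 0.05 was found in 0 of the 7, beside 18.4% of all tested genes. The median log2 fold change of the 7 was 0.20, and 0.0053 without RVC 1. Efna1 was the highest of them at 58.0 ± 11.8 FPKM (SD, n = 4). The highest fold change was that of Ephb6, a kinase-dead Eph receptor (0.41, SE 0.273, limma adjusted p = 0.44), and the lowest that of Ephb4 (-0.14, SE 0.161, limma adjusted p = 0.663).

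Prom1 encodes a membrane glycoprotein of cell protrusions and was the most abundant of the 10 genes by a wide margin. It was at 80.4 FPKM (RVC 1) and 86.4 FPKM (RVC 2) against 71.7 FPKM (fresh frozen 1) and 71.5 FPKM (fresh frozen 2) (mean 77.5 ± 7.23, SD, n = 4). Both RVC libraries were above both fresh-frozen ones, which differed from each other by 0.03 on the log2 scale, and the log2 fold change was 0.22 (SE 0.104, 95% interval -0.02 to 0.47, limma adjusted p = 0.303). Prom1 exceeded Lgr5 by 81.5 times in RVC 1 and 154 times in RVC 2, against 119 and 88.8 times in the fresh-frozen libraries 1 and 2, ratios that move mainly with the low Lgr5 values. Epcam, a general epithelial surface gene, was only 9.07 to 10.9 times as high as Prom1.

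Among the 19 transcripts of Prom1, those with a start near the far end of the locus (chr5:44259023-44259374, GRCm39, minus strand) held most of the level. They summed to 49.7 FPKM (RVC 1) and 47.5 FPKM (RVC 2) against 39.7 FPKM (fresh frozen 1) and 37.7 FPKM (fresh frozen 2), with the RVC libraries higher. Transcripts listed with a start further into the gene (chr5:44252055-44252110) summed to 18.9, 27.1, 17.3 and 20.9 FPKM in the same order, and here the groups overlapped. The 1089-nt Prom1-211, which covers the last part of the gene, went the other way from the gene sum, at 5.06 and 5.83 FPKM in the RVC libraries against 10.2 and 8.52 FPKM in the fresh-frozen ones. In RVC 1 the higher Prom1 sum was therefore mostly carried by the far-start transcripts, and in RVC 2 by both start groups. Prom1-211 was lower in both RVC libraries.

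**Figure D2:**
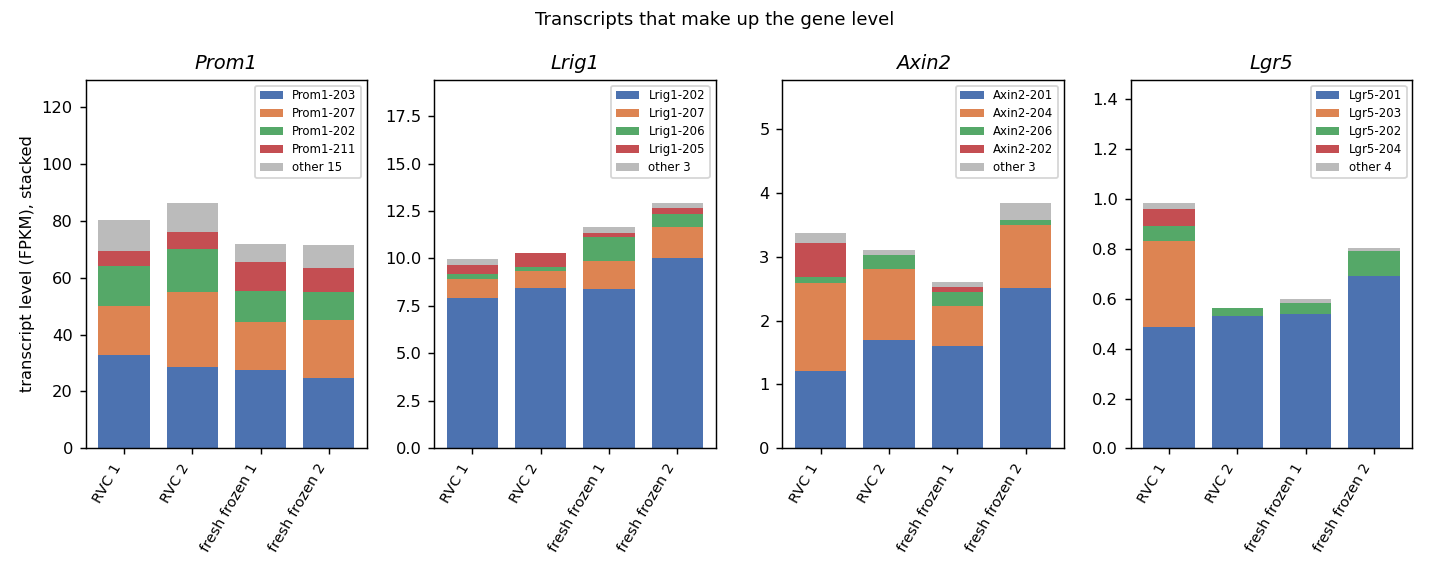
Transcript levels in FPKM, stacked to the gene level, for Prom1, Lrig1, Axin2 and Lgr5 in each library, with the rarer transcripts of each gene summed in grey. Lgr5-203 is seen only in RVC 1, and Axin2-201 is lowest there, at 1.21 FPKM.

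The second most abundant Prom1 transcript, Prom1-207 (3534 nt), was at 17.6, 26.1, 16.9 and 20.1 FPKM in RVC 1, RVC 2, fresh frozen 1 and fresh frozen 2. Its listed start is the boundary of an exon at chr5:44251737-44252110. In GENCODE vM39, 27 of 34 Prom1 transcripts have an exon beginning at that base, 5 as their first exon and 22 as a later one. Reads of that exon therefore fit both kinds of transcript, and the split between the start groups is an estimate of the authors' model. The 250 bases just before it, chr5:44252111-44252360 on the minus strand, are shown because they are the intron end for the 22 transcripts, with the last 2 bases, the splice acceptor AG, in capitals.

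Prom1-207 upstream: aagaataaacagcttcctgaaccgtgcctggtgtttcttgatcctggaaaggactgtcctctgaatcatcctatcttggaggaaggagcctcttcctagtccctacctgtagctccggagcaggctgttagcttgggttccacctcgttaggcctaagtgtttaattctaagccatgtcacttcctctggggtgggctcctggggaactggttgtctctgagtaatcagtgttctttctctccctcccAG

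Stem cell genes were then set beside the test of every gene, a limma fit on log2(scaled FPKM + 1) of 13771 genes with a mean of at least 1 FPKM, in which fold changes of low genes are understated. Of the 7 stem cell genes tested, 0 passed at an adjusted p under 0.05 by limma, where 0.0363% of all tested genes did (0.0145% higher and 0.0218% lower in RVC). Unadjusted p-values under 0.05 were likewise found in 0 of the 7, where 18.4% of all tested genes were counted (9.38% higher and 8.99% lower in RVC). RVC was higher without overlap in 1 of the 7, Prom1, and lower without overlap in 3, Lrig1, Sox9 and Ephb2, and such separation was found in 53.2% of all tested genes (26.5% higher and 26.6% lower). In Prom1, Lrig1 and Sox9 the difference between groups was larger than the difference within either group. How many of all tested genes do the same was not counted, so this is no result about these genes. The median log2 fold change of the 7 was -0.15, beside 0.0066 over all tested genes, and 4 of 7 were below 0, beside 49% of all genes. This median turned to 0.05 without fresh frozen 2. The coefficient of variation over the 4 libraries had a median of 12.4% for the 7 genes and 13.8% for all tested genes. An exact permutation test of 2 against 2 libraries cannot go below p = 0.333, so single genes were not tested that way.

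Cell cycle genes were kept apart from the stem cell genes. Of 25 listed, Cdt1 is not analysed here, and 22 were tested. None passed at an adjusted p under 0.05 by limma (lowest 0.127), and 10 had an unadjusted p under 0.05, all lower in RVC, beside 8.99% of all tested genes. Their median log2 fold change was -0.25 with 16 of 22 below 0, beside 49% of all tested genes. Without overlap, 12 of the 22 were lower in RVC and 0 higher, beside 26.6% and 26.5% of all tested genes. Cenpf, a kinetochore protein, had the lowest value, at 1.27 and 1.17 FPKM in the RVC libraries and 2.53 and 3.04 FPKM in the fresh-frozen ones (log2 fold change -0.76, SE 0.153, limma adjusted p = 0.129). Mki67, the usual proliferation marker, was at 5.35, 6.51, 9.12 and 10.1 FPKM in RVC 1, RVC 2, fresh frozen 1 and fresh frozen 2. Pcna, the replication clamp and the highest of the list, overlapped between groups at 23.4, 27.8, 24.9 and 21.2 FPKM, and Rrm2, a ribonucleotide reductase subunit, had the highest fold change (0.30, SE 0.212, limma adjusted p = 0.465). Genes on this list thus had values on both sides of 0, but those above 0 all overlapped between groups. The stem cell genes lay between -0.25 and 0.22. That the cell cycle list and the stem cell genes differ was not tested.

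**Figure D3:**
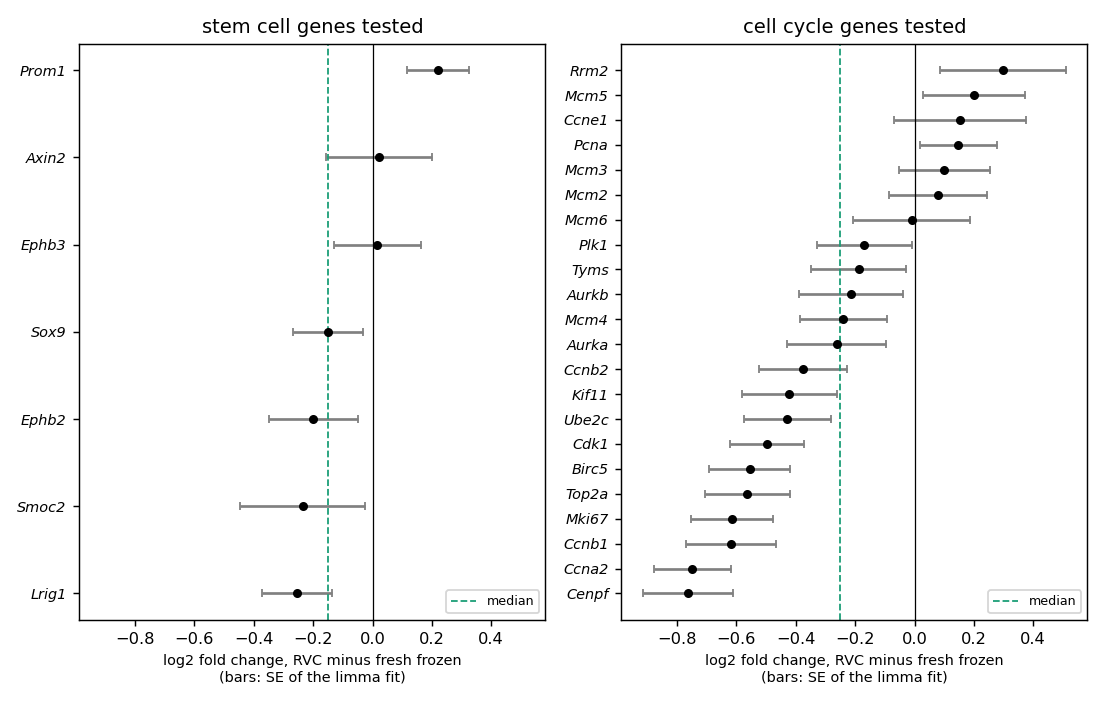
Log2 fold change of RVC over fresh frozen for the 7 stem cell genes tested (left) and the 22 cell cycle genes tested (right), with bars for the SE of the limma fit and a dashed line at each list's median. The medians are -0.15 and -0.25, and the cell cycle genes reach down to -0.76.

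Other genes known from crypt base cells or as Wnt targets there numbered 16, of which 11 were tested and none passed by limma. At an unadjusted p under 0.05, 2 were lower and 1 higher in RVC, beside 8.99% and 9.38% of all tested genes. The median log2 fold change of the 11 was -0.05. Slc12a2, a sodium-potassium-chloride cotransporter that is strong in crypt base cells, was at 19.6 FPKM in both RVC libraries, against 33.7 and 43.2 FPKM in fresh frozen libraries 1 and 2. The groups were well apart, with a log2 fold change of -0.92 (SE 0.143, limma adjusted p = 0.112, and 0.0193 to 0.402 over the alternatives run). Without fresh frozen 1 its adjusted p was 0.0212 by limma. Nkd1, an inhibitor of Wnt signal and itself a Wnt target, went the other way, at 2.41 and 2.99 FPKM in the RVC libraries and 1.58 and 1.48 FPKM in the fresh-frozen ones (log2 fold change 0.55, SE 0.151, limma adjusted p = 0.158). Reg4, a marker of the deep crypt secretory cells that sit between colonic stem cells, was at 70.2, 80.4, 123 and 131 FPKM in RVC 1, RVC 2, fresh frozen 1 and fresh frozen 2 (log2 fold change -0.74, SE 0.117, limma adjusted p = 0.112). Of 7 markers of Paneth cells, the partner cells of small intestinal stem cells, Mmp7 and Defa17 were listed at 0 in every library, and 2 had a mean of at least 1 FPKM. Those 2 were Lyz1 at 2.21 to 2.46 FPKM and Ang4 at 41.8 FPKM (RVC 1) and 1.12 FPKM (RVC 2) against 1.95 FPKM (fresh frozen 1) and 13.2 FPKM (fresh frozen 2), so that Ang4 was high in 1 library of each group.

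Among receptors, ligands and transducers of Wnt and R-spondin signal, 16 of 24 were tested and none passed by limma. Of the 16, 2 had an unadjusted p under 0.05, beside 18.4% of all tested genes. The median log2 fold change of the 16 was 0.03. Lgr4, the broadly expressed relative of Lgr5, was at 54.0, 61.1, 60.9 and 60.7 FPKM in RVC 1, RVC 2, fresh frozen 1 and fresh frozen 2, which is 54.8 to 108 times the level of Lgr5. Lgr6, the third relative, was at most 0.0282 FPKM. Rnf43, a ubiquitin ligase that removes Wnt receptors and is held back by R-spondin bound to Lgr receptors, was 3.73 to 6.17 times as high as its partner Znrf3. Ctnnb1, the gene of beta-catenin, was the highest of the list at 147 ± 6.53 FPKM (SD, n = 4). Tcf7l2, the main TCF factor of gut epithelium, had its highest fold change, with 87.8 and 95.9 FPKM in the RVC libraries and 67.3 and 72.7 FPKM in the fresh-frozen ones (log2 fold change 0.39, SE 0.112, limma adjusted p = 0.163). Apc, the tumour suppressor of the destruction complex, had the lowest (-0.23, SE 0.122, limma adjusted p = 0.345).

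**Figure D4:**
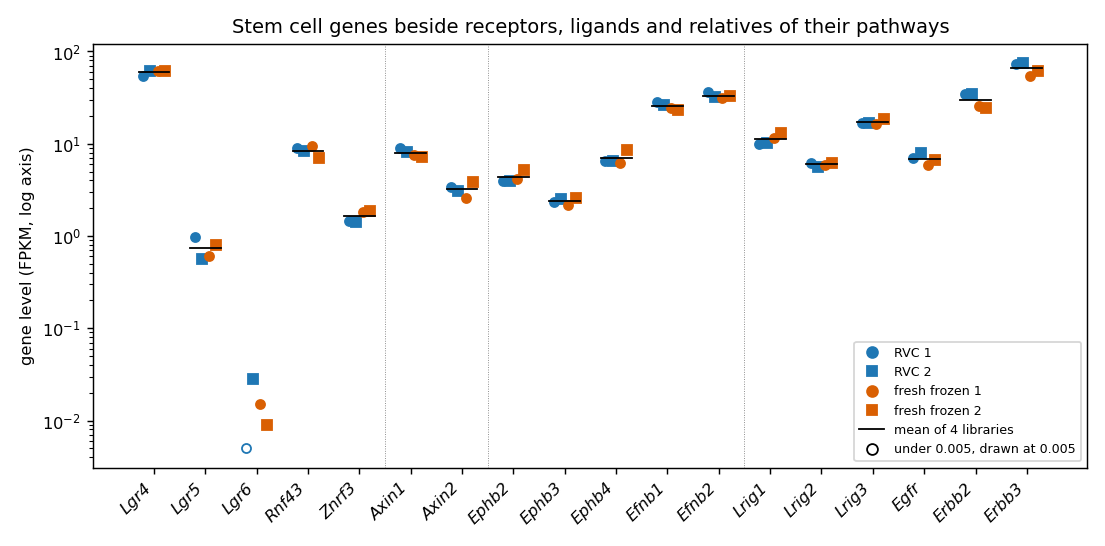
Levels in FPKM on a log axis of stem cell genes beside receptors, ligands and relatives of their pathways, 1 point per library and a bar at the mean where all 4 values were above 0; the open point was listed at 0. Lgr4 lies at 54.0 to 61.1 FPKM and Lgr5 below 1 FPKM, and the ephrins Efnb1 and Efnb2 lie above Ephb2 and Ephb3.

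In the ErbB system that Lrig1 restrains, 9 of 11 genes were tested and none passed by limma. Of the 9, 3 had an unadjusted p under 0.05 (2 higher and 1 lower in RVC), beside 18.4% of all tested genes. The median log2 fold change of the 9 was -0.03. Erbb3 was the highest at 65.7 ± 9.74 FPKM (SD, n = 4), and Erbb2 had the highest fold change (0.46, SE 0.102, limma adjusted p = 0.131), at 34.5 and 34.7 FPKM in the RVC libraries and 25.5 and 24.6 FPKM in the fresh-frozen ones. Betacellulin, the ligand encoded by Btc, had the lowest fold change (-0.34, SE 0.143, limma adjusted p = 0.269). Erbb3 was 7.32 and 7.26 times as high as Lrig1 in the RVC libraries and 4.67 and 4.69 times in the fresh-frozen ones. Since Erbb3 was higher and Lrig1 lower in RVC, each without overlap, this ratio must separate the groups. The ratio was not tested. Lrig3 was 1.39 to 1.67 times as high as Lrig1, and Lrig1 1.60 to 2.09 times as high as Lrig2. In the Notch system, which sets the choice between stem, absorptive and secretory fate, 8 of 9 were tested and none passed by limma. Of the 8, 1 had an unadjusted p under 0.05, beside 18.4% of all tested genes. The median log2 fold change of the 8 was 0.02. Hes1, a Notch target, was the highest there at 22.6 ± 3.88 FPKM (SD, n = 4), and Dll1, a ligand of secretory precursors, had the lowest fold change (-0.45, SE 0.156, limma adjusted p = 0.211). The receptor Notch2 had the highest (0.12, SE 0.154, limma adjusted p = 0.693).

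Bulk gut mixes epithelium with muscle and stroma, so each gene was also taken relative to the geometric mean of 12 general epithelial genes in its library. On this scale 8 of 9 stem cell genes (Olfm4 left out for its zeros) were lower in RVC and the median log2 difference was -0.27, beside 62.7% lower and a median of -0.10 among 13760 tested genes above 0 in every library. The 9 include Lgr5 and Ascl2, which were too low to be tested and are not among the 13760 genes. Lgr5 was lower by only -0.0058, and Ascl2 had the lowest value, -0.73. The base itself leaned up in RVC, with 10 of its 12 genes above 0 and a median log2 fold change of 0.085 in the fit. Ascl2, Lrig1, Sox9 and Ephb2 were lower without overlap, as were 37% of those 13760 genes, and Prom1 overlapped with a difference of 0.11. With Epcam and Cdh1 alone as the base, the median was -0.25 and 7 of 9 were lower, beside a median of -0.08 and 59.9% lower among the 13760 genes. On that base the same 4 genes were lower without overlap (35.3% of the 13760 genes were), and Prom1 was higher without overlap by 0.14 (17.2% were). These values are descriptions without a test. Genes of mature absorptive colonocytes had fold changes above 0 in 8 of 8 cases and enteroendocrine genes below 0 in 6 of 6 tested, where 49% of all tested genes were below 0. No gene of either list passed by limma (lowest adjusted p = 0.129 and 0.118). At an unadjusted p under 0.05, 3 absorptive genes were higher and 4 enteroendocrine genes lower in RVC. Of all tested genes, 9.38% were higher and 8.99% lower at that threshold. The part of cell type content in the stem cell gene values was not tested.

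Leaving out each library in turn showed which signs rest on 1 library. Prom1 stayed above 0 and Lrig1, Sox9 and Ephb2 below 0 in all 4 runs, in which the lone library of a group is assumed to vary like the other group. The groups do not overlap in these genes, so leaving out a library could hardly turn their sign. Their constant sign thus only restates the lack of overlap. Axin2 went below 0 without RVC 1 or without fresh frozen 1, and Ephb3 without RVC 2 or without fresh frozen 1, and both also went below 0 when libraries were scaled on general epithelial genes. Fresh frozen 2 had the highest level of Lrig1, Sox9, Ephb2, Smoc2, Axin2 and Ephb3 of the 4 libraries and was also the deepest. It stood apart in Fabp2 as well, at 43.7 FPKM against 14.5 to 16.9 FPKM elsewhere. The part that depth or tissue content plays was not tested.

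**Figure D5:**
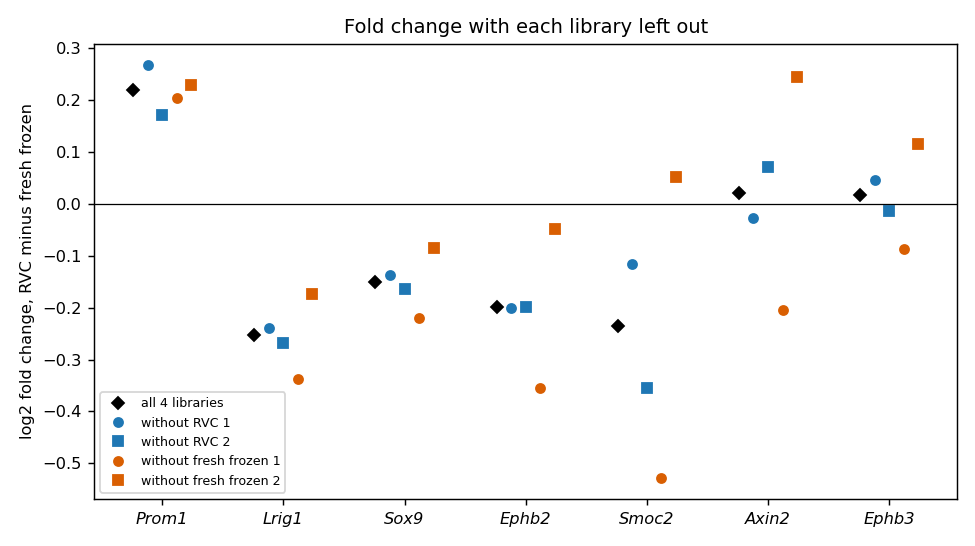
Log2 fold change of RVC over fresh frozen for the 7 stem cell genes tested, with all 4 libraries (diamonds) and with each library left out in turn. Prom1, whose groups do not overlap, stays above 0 throughout, whereas Smoc2 runs from -0.53 without fresh frozen 1 to 0.05 without fresh frozen 2.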

How the data were processed

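Total RNA was depleted of ribosomal RNA and sequenced as 150-bp read pairs, per the labels' protocols. Reads were aligned with TopHat2 2.1.1 to GRCm39 and transcript FPKM and coverage signal were estimated with Cufflinks 2.2.1, per the series' design text and the submitters' processing notes. The annotation release and any strand setting are not given in the sources used here. The deposited FPKM values and confidence bounds, 1 library per file, were used as they stand, and the authors' coverage signal served only for relative depth.

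Gene FPKM was the sum over transcripts. Libraries were scaled by median ratio, and log2(scaled FPKM + 1), with a pseudocount of 1, was fitted with limma 3.58.1 in R 4.3.3 (lmFit, eBayes with trend, two-sided, no covariate). Genes needed a mean scaled FPKM of at least 1, a transcript of at least 300 nt and status OK. P-values were adjusted by Benjamini-Hochberg over 13771 genes. The fit was tested on simulated data. Transcript types, exons and sequence came from GENCODE vM39 and GRCm39, where 45 of the 66 transcripts have the same ends.

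The members and lists were chosen with earlier results of these data known. From each pathway, stem cell and cell cycle list the highest gene and the genes with extreme fold changes are named, cell type marker lists are given by counts with single markers picked after their values were seen, and others named (Mki67, Efnb1, Efnb2, Lgr4, Lgr6, Rnf43, Znrf3, Lrig2, Lrig3, Sox4) are pathway partners or relatives. Alternatives covered pseudocount, scaling, filters, transcript choice, the trend, a block on sample number and each library left out. Crossed numbers and protein-coding transcripts only were added after the data were seen.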

Additional observations from a re-analysis of the deposited data

How the results depend on the processing

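No stem cell gene and no cell cycle gene passed the adjusted threshold in any of the 16 alternatives. Prom1, Lrig1, Sox9, Ephb2 and Ascl2 kept their direction in all 16. Most of these could hardly turn it. Filters on the mean, the trend and the blocks leave a fold change as it is. Leaving out a library rarely turns the sign of a gene whose groups do not overlap, and these genes did not overlap. The count of genes that passed among all tested was 5, and it was 0 without the filter on low values, without transcripts under 300 nt, without the trend or with protein-coding transcripts only, 2 at a mean of at least 5 FPKM or on the most abundant transcript, and 8 to 40 with a library left out. A block on sample number gave 112 genes, and 6 genes of the other lists in place of 0, among them Slc12a2 (limma adjusted p = 0.0193) and Reg4 (limma adjusted p = 0.0402). Whether the numbers pair the samples cannot be told from these data. Same-numbered deviations correlated at r = -0.134 over 13771 genes, but every gene rests on the same few libraries, so this value cannot decide it. A block on crossed numbers gave 12 genes. Other lists had 1 to 4 passing genes without RVC 1, fresh frozen 1 or fresh frozen 2, and 0 without RVC 2. The stem cell gene median of -0.15 ran from -0.22 to 0.053 with a library left out, above 0 only without fresh frozen 2. The cell cycle median of -0.25 became -0.40 at a pseudocount of 0.1, -0.46 at a mean of at least 5 FPKM and -0.39 on the most abundant transcript, and ran from -0.37 without RVC 2 to -0.17 without fresh frozen 2. Axin2 reversed to -0.063 when scaled on epithelial genes and -0.29 on the most abundant transcript, and ran from -0.21 to 0.24 with a library left out. Ephb3 reversed to -0.061 when scaled on epithelial genes and ran from -0.087 to 0.12. Ctnnb1 reversed to 0.14 on the most abundant transcript and 0.030 with protein-coding transcripts only, and ran from -0.087 to 0.012. Ephb4 reversed to 0.080 on the most abundant transcript and ran from -0.35 to 0.070. Smoc2 ran from -0.53 to 0.053 and Hes1 from -0.26 to 0.18 with a library left out. The cause of these changes was not tested. With fragments per library unknown, the values of Lgr5, Ascl2 and Olfm4 carry no counting interval beyond the authors' bounds.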
